A study of Rattus norvegicus with 9 samples.

Results

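Regeneration-associated genes are switched on in dorsal root ganglion (DRG) neurons when their peripheral axon is cut. The 10 genes described here, Atf3, Jun, Sox11, Klf6, Smad1, Stat3, Sprr1a, Gap43, Gadd45a and Ecel1, were taken by symbol from the 20194 genes of a rat DRG RNA-Seq table. All 10 are in the table, and all 10 are among the 14305 genes that reached an FPKM of 1 in at least 1 of the 9 libraries. FPKM is a count of sequenced fragments scaled to transcript length and library depth, so it allows levels to be compared between genes. Sprr1a passed this filter only through the injured groups, so the filter favoured its direction in both comparisons with sham.

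Sensory neurons of the DRG can regrow a cut peripheral axon, and the change in transcription that accompanies regrowth begins in the cell body. Retrograde injury signals, among them the DLK and JNK kinases, IL-6 family cytokines acting through JAK and STAT3, and BMP acting through SMAD1, reach the nucleus and engage transcription factors such as ATF3, c-Jun, SOX11 and KLF6. These factors are known to work together on effector genes whose products act at the growth cone, in the cytoskeleton and in the stress response. ATF3 is absent or low in intact DRG neurons and is widely used as a marker of axotomised ones.

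Adult male Sprague-Dawley rats, 8 to 10 weeks old, formed 3 groups of 3 libraries. Sham rats were the uninjured controls, and what their operation involved is not given in the sources used here. SNI (spared nerve injury) rats had the tibial and common peroneal branches of the sciatic nerve tied and cut with the sural branch left intact, so a ganglion held injured and uninjured neurons together. SNI + G15 rats had the same injury and received G15, an antagonist of the G protein-coupled oestrogen receptor GPER, in the subarachnoid space (1 μl at 1.8 μg/μl). The catheter was placed on day 5 after SNI and the drug was given for 24 h, in 2% dimethyl sulfoxide by the labels and in a lower concentration by the methods. The titles mark the sham and SNI samples as the G15 controls. The labels repeat one drug protocol for all 9 samples and do not say which of the sham and SNI rats had a catheter or the vehicle. The RNA came from whole ipsilateral ganglia of lumbar segments 4 to 6. In such bulk tissue, fewer cells of a type and less RNA per cell cannot be told apart.

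The libraries were of nearly equal depth, with 18484557 to 18756736 estimated reads and 1.47% between the smallest and the largest. SNI + G15 replicate 3 stood apart from its group. Its counts differed from those of the other 2 by a chi-square of 9.24 and 8.93 per degree of freedom, while pairs of other replicates within a group gave 2.70 to 4.92. Differences of the 10 genes between SNI + G15 and SNI are therefore given with and without it, and so are the counts of the pathway lists. The 12 neuron markers were all detected. Of these, 2 (Tubb3 and Prph) were higher in SNI than in sham, 7 lower and 3 not called. Their summed FPKM ranged over 16171–16591 (sham), 13673–14099 (SNI) and 13785–14693 (SNI + G15). Macrophage markers ranged over 123–133, 280–299 and 300–328 in the same order, with 8 of 9 higher in SNI than in sham and each of the 9 detected in every group. Schwann cell markers ranged over 5159–5270, 2854–2912 and 3078–3200. The part of these cell types in the results on the 10 genes was not tested.

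Promoters were looked up because the AP-1 site is the sequence bound by c-Jun with its partners, and the CRE by ATF and CREB proteins. RefSeq promoters of the rat build GRCr8, from 250 bases before to 50 bases after the start of the gene, were found for 7 of the 10 genes. Atf3, Gap43 and Jun had no entry. The 3 genes printed are among those with the largest rise after SNI, and the choice was made after the matches were seen. Capitals mark AP-1 and TATA box letters in Sprr1a, and GC box (GGGCGG) and CCAAT letters in Sox11, on either strand. Ecel1 held none of the motifs searched. All 3 lie on the minus strand and are written 5′ to 3′ along the gene, at chr2:180752576-180752875 for Sprr1a, chr6:49738745-49739044 for Sox11 and chr9:95274523-95274822 for Ecel1.
Sprr1a: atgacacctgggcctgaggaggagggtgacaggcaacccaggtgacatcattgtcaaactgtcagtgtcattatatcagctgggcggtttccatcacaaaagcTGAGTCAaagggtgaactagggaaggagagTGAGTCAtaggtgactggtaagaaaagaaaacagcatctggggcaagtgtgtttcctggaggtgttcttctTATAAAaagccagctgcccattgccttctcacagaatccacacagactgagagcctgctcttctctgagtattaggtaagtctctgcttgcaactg
Sox11: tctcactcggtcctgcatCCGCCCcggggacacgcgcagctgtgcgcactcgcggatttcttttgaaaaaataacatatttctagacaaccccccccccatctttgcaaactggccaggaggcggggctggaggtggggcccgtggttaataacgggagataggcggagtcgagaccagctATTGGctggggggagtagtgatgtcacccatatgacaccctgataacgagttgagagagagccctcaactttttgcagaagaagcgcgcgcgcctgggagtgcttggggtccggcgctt
Ecel1: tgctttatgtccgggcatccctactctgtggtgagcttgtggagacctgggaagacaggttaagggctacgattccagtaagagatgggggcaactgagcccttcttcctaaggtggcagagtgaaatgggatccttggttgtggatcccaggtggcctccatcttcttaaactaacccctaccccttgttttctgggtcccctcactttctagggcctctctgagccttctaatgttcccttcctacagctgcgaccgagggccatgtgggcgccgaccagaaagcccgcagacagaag

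The AP-1 letters TGACTCA, read on both strands, were found in 1 of the 7 promoters. This was Sprr1a, with 2 matches whose first bases lay 147 and 117 bases before the start, with the TATA box letters TATAAA 46 bases before it, and with 1 GC box match 169 bases before it that is left in lower case. Of 33469 rat promoters of the same length, 4.63% held the AP-1 letters at least once, 0.17% (57 promoters) held them at least 2 times, and 14.2% held TATAAA. The CRE letters TGACGTCA were in none of the 7 and in 1.83% of all promoters. TTCNNNGAA, a form of the STAT site, was in none of the 7 and in 8.87% of all. GC box letters were in 33.1% and CCAAT in 37.5% of all promoters. The STAT, TATA, GC box and CCAAT searches were added after the first matches were seen. A match in these windows describes the letters only.

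All 10 genes were higher in SNI than in sham, each with a p under 0.05 after adjustment over the 14305 genes tested (quasi-likelihood test of edgeR). Among all tested genes 23.3% were higher and 22.4% were lower by this rule. The 10 include Sprr1a, whose direction the filter favoured. The median log2 fold change of the 10 was 2.12, against 0.0010 over all tested genes. For each of the 10, the lowest SNI library lay above the highest sham library, which held for 31.1% of all tested genes. The sizes differed widely, from 8.54 on the log2 scale for Sprr1a to 0.43 for Stat3.

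Among the transcription factors, Atf3, a stress-induced bZIP protein, had the lowest sham level relative to its injured level. Its FPKM was 3.94, 4.30 and 3.61 in the sham libraries and 143.20, 142.07 and 138.34 in SNI. The SNI group lay far above sham, a log2 fold change of 5.13 (SE 0.060, n = 3 per group, adjusted p = 3.97e-12, edgeR), or 34.9-fold. In SNI + G15 the libraries held 135.41, 132.39 and 139.84. These overlapped with SNI.

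Jun encodes c-Jun, the AP-1 subunit activated by JNK, and unlike Atf3 it was already well expressed without injury. Its FPKM was 27.85, 28.07 and 31.69 in sham, 99.98, 96.44 and 101.13 in SNI and 104.62, 104.81 and 105.09 in SNI + G15. The rise after SNI was 1.73 (log2, SE 0.053, adjusted p = 2.10e-09, edgeR). All 3 SNI + G15 libraries were above all 3 SNI libraries, but by a few FPKM.

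Sox11 encodes a SoxC factor of developing neurons. It had 0.67, 1.01 and 1.33 FPKM in sham, 10.59, 9.08 and 10.88 in SNI and 9.92, 10.24 and 10.85 in SNI + G15. The sham libraries were close to the filter limit and the injured groups overlapped. The log2 fold change against sham was 3.31 (SE 0.16, adjusted p = 8.42e-08, edgeR), with the largest standard error of the 10 genes after Sprr1a.

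Klf6, Smad1 and Stat3 changed least. Klf6, a zinc finger factor that promotes neurite growth, had 18.99, 18.17 and 18.78 FPKM in sham and 29.86, 30.42 and 31.72 in SNI, and its SNI + G15 values of 29.00, 28.13 and 30.23 overlapped with those of SNI. Smad1, the nuclear effector of BMP receptors, had 9.89, 8.74 and 8.90 in sham, 19.94, 20.33 and 21.54 in SNI and 19.53, 19.90 and 17.29 in SNI + G15. Its SNI + G15 range lay just under that of SNI, with replicate 3 the lowest. Stat3, which carries the IL-6 family signal to the nucleus, had 72.51, 67.65 and 72.02 in sham, 95.83, 96.69 and 98.47 in SNI, and 95.23, 94.15 and 86.61 in SNI + G15. The gene was thus abundant in intact ganglia, and its rise of 0.43 (log2, SE 0.036, adjusted p = 5.00e-06, edgeR) was the smallest of the 10. The rises of Smad1 and Klf6 were 1.14 and 0.69.

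Among the effectors, Sprr1a was the one gene close to silent in sham. Sprr1a encodes a small proline-rich protein of the cornified envelope of skin that is known to be induced in axotomised neurons. The sham libraries held 0, 1 and 1 estimated reads and the SNI libraries 317, 287 and 297, which is 21.59, 19.50 and 20.29 FPKM. The sham level was set at a limit of 3 reads per library, above its highest count of 1. Against that limit, the mean of 300.3 reads in SNI was at least 100-fold higher. In SNI + G15 the counts were 307, 326 and 333, at least 107-fold above the same limit. The fitted log2 value of 8.54 depends on the prior count and is no bound. With Sprr1a at its bound, the median of the 10 genes was the same, 2.12.

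Sprr1a rose without its skin relatives. Of 7 listed relatives and envelope genes, 5 are in the table (Sprr1b, Sprr2d, Sprr3, Ivl and Lor), and none reached the filter. The highest FPKM of any of them in any library was 0.37, for Sprr1b. The 7 keratinocyte markers summed to between 1.65 and 2.41 FPKM in all 3 groups, and the 1 that was tested was not called in any comparison.

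Gap43, a membrane protein of the growth cone, was the most abundant of the 10 in every group. Its FPKM was 156.42, 162.23 and 151.59 in sham, 391.27, 402.84 and 405.18 in SNI and 424.64, 422.91 and 466.36 in SNI + G15. The groups were apart from each other, and SNI + G15 replicate 3 was the highest library. The log2 fold change after SNI was 1.32 (SE 0.036, adjusted p = 8.66e-10, edgeR).

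Gadd45a encodes a stress sensor linked to DNA repair and demethylation. It had 17.06, 19.06 and 17.62 FPKM in sham, 107.00, 100.23 and 103.69 in SNI and 100.85, 100.12 and 122.85 in SNI + G15. The value of replicate 3 widened the spread of the last group to 108 ± 12.9 (SD, n = 3), against 104 ± 3.39 in SNI. The rise after SNI was 2.50 on the log2 scale, or 5.67-fold (SE 0.055, adjusted p = 1.85e-10, edgeR).

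Ecel1 encodes a neuronal membrane protein of the endothelin-converting enzyme family, also known as DINE for its induction by nerve damage. It had 1.35, 1.23 and 1.59 FPKM in sham, 14.00, 12.11 and 13.44 in SNI and 15.01, 15.31 and 14.61 in SNI + G15. Its rise of 3.22 (log2, SE 0.092, adjusted p = 1.17e-09, edgeR) was close to that of Sox11, and both started from about the same low level.

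**Figure D1:**
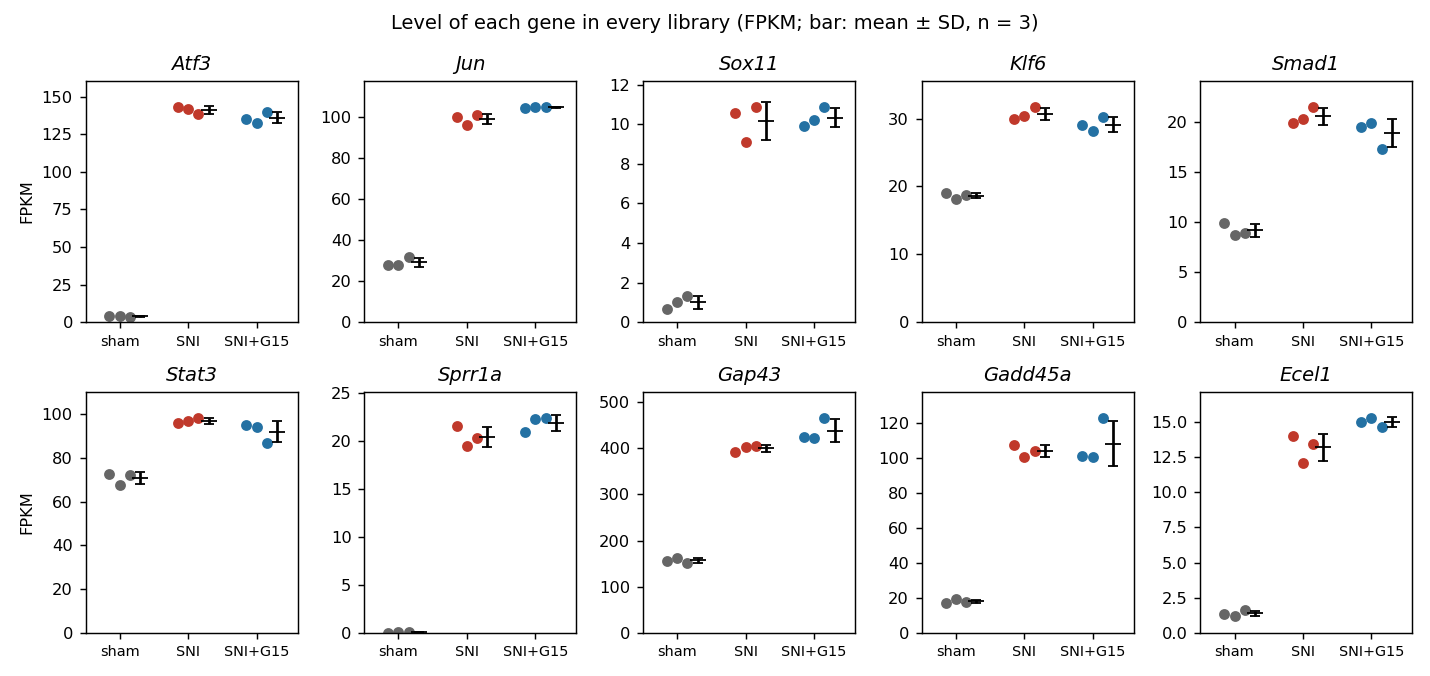
FPKM of the 10 genes (one panel each, axis from 0) in the 3 sham, 3 SNI and 3 SNI + G15 libraries, with points for libraries and bars for the mean ± SD (n = 3). In every panel the injured groups lie above sham, and the distance between SNI and SNI + G15 is small beside that from sham.

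The order of the genes by level also changed with injury. In sham it ran from Gap43 through Stat3, Jun, Klf6, Gadd45a, Smad1, Atf3, Ecel1 and Sox11 to Sprr1a. Klf6 and Gadd45a overlapped, as did Ecel1 and Sox11, and the other neighbours did not. In SNI, Gap43 came first at a mean of 399.8 FPKM and Atf3 second at 141, followed by Gadd45a, Jun and Stat3, whose ranges overlapped from one to the next. Klf6 was next, then Smad1 and Sprr1a with overlapping ranges, then Ecel1 and Sox11. Atf3 thus moved from rank 7 to rank 2, and from percentile 29.7 of the tested genes to percentile 96.0. Sprr1a moved from percentile 0.24 to 70.5.

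The summed FPKM of the 10 genes was 308.8 in sham, 935.9 in SNI and 973.9 in SNI + G15 (means of 3 libraries). Gap43 made up 50.8% of the sum in sham and 42.7% in SNI. The largest gain in FPKM from sham to SNI was that of Gap43, 243, followed by Atf3 with 137, Gadd45a with 85.7 and Jun with 70.0. The smallest was that of Sox11, 9.18. The order by gain therefore differed from the order by fold: Sox11, whose fold was close to that of Ecel1 and below those of Sprr1a and Atf3, was last by FPKM gained.

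**Figure D2:**
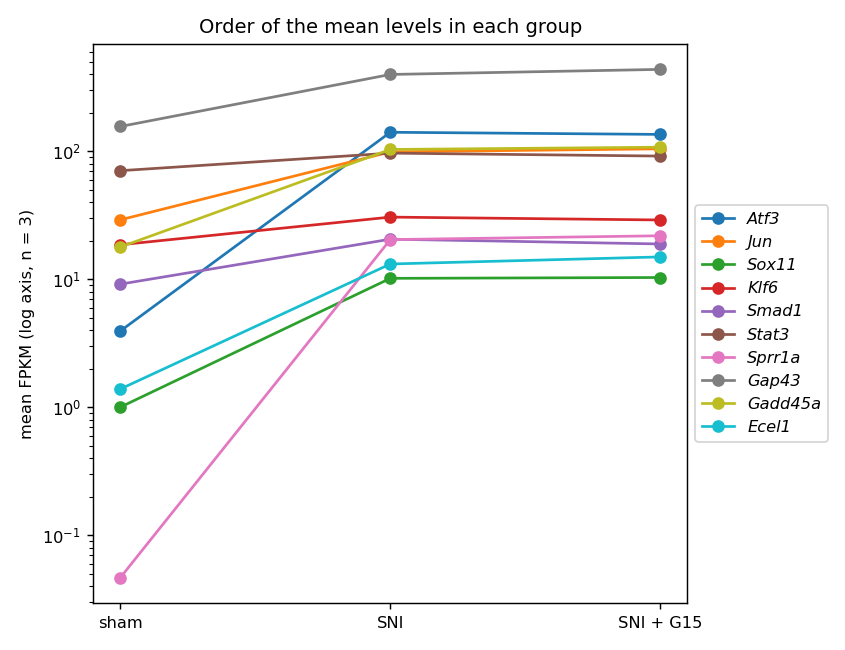
Mean FPKM of each gene (log axis, n = 3) in sham, SNI and SNI + G15, one line per gene. The lines of Atf3, Gadd45a and Sprr1a cross those of other genes between sham and SNI, and those of Jun and Stat3 cross each other. Between SNI and SNI + G15 only the lines of Smad1 and Sprr1a cross.

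SNI + G15 against sham gave the same direction for all 10 genes, and the 2 comparisons share the sham libraries. All 10 had an adjusted p below 0.05, the highest being 0.000515 for Stat3, where 21.4% of all tested genes were higher and 21.9% lower. All 10 had ranges above sham, as did 30.1% of all tested genes. The log2 fold changes were 5.06 for Atf3, 3.37 for Ecel1, 3.32 for Sox11, 2.55 for Gadd45a, 1.44 for Gap43, 1.01 for Smad1, 0.60 for Klf6 and 0.34 for Stat3, and Jun was 3.49-fold higher. Their median, with Sprr1a, was 2.18, against -0.0037 over all tested genes.

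**Figure D3:**
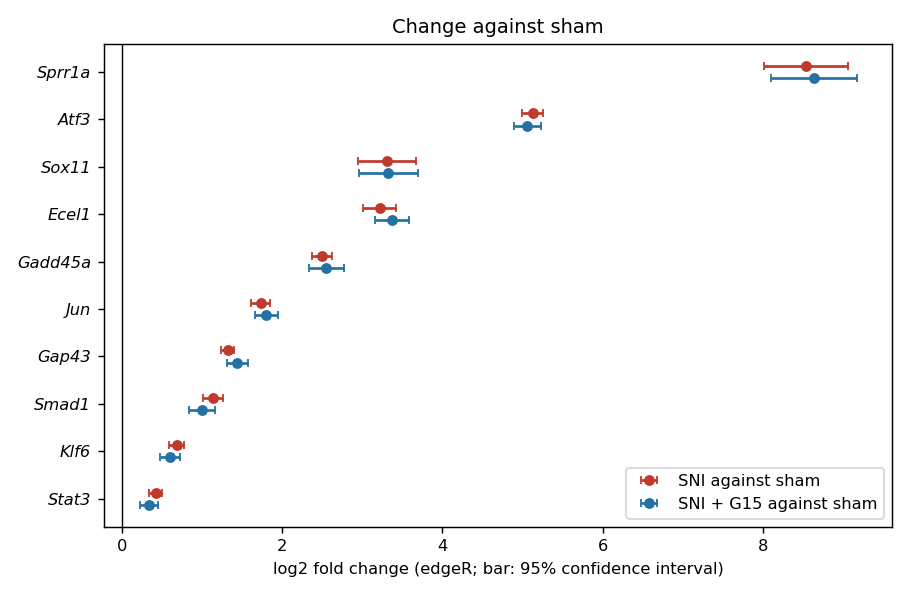
Log2 fold change against sham (edgeR) of each gene in SNI and in SNI + G15, with 95% confidence intervals, from 3 libraries per group. Genes are ordered by the change in SNI, from 8.54 for Sprr1a (a fitted value that depends on the prior count) to 0.43 for Stat3.

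G15 was compared with SNI alone to ask whether blocking GPER was accompanied by another level of these genes. None of the 10 was called by edgeR at an adjusted p below 0.05, where 7.98% of all tested genes were higher and 7.25% were lower. DESeq2 and limma called 0 as well, and 3 of the 10 (Jun, Gap43 and Ecel1) had an unadjusted p below 0.05 in edgeR, all higher in SNI + G15, as did 16.3% of all tested genes in that direction. The median absolute log2 fold change of the 10 was 0.084, against 0.12 over all tested genes. A missed threshold does not show that the levels were the same, and the intervals below bound the difference.

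Gap43 and Ecel1 came closest to the threshold. Ecel1 was higher in SNI + G15 by 0.18 on the log2 scale (95% confidence interval 0.048 to 0.31, adjusted p = 0.0685, edgeR) and Gap43 by 0.15 (0.037 to 0.26, adjusted p = 0.0728). Jun was higher by 0.094 (0.0096 to 0.18, adjusted p = 0.120). In these 3 genes every SNI + G15 library exceeded every SNI library in FPKM, which held for 17.3% of all tested genes. Smad1 and Stat3 had the opposite order, as did 21.0% of all tested genes, with log2 differences of -0.11 (-0.24 to 0.024) and -0.063 (-0.16 to 0.030).

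For Atf3 the difference was -0.042 on the log2 scale, with a 95% confidence interval of -0.13 to 0.051. That interval is narrow beside its rise of 5.13 after SNI. The intervals were -0.15 to 0.22 for Sox11, -0.17 to 0.046 for Klf6, -0.040 to 0.27 for Sprr1a and -0.11 to 0.26 for Gadd45a. The highest upper limit of the 10 was the 0.31 of Ecel1 and the lowest lower limit the -0.24 of Smad1.

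Leaving out SNI + G15 replicate 3 brought 2 genes past the threshold, Gap43 at 0.091 (adjusted p = 0.0466) and Ecel1 at 0.20 (adjusted p = 0.0422). Gap43 was called although its difference became smaller, since its spread fell too, with an SE of 0.026 against 0.048. Without this library Gadd45a changed from 0.073 to -0.038 and Sox11 from 0.036 to -0.0075, both far from the threshold. An offset that removes the trend of the fold change with transcript length brought Jun to 0.13 (adjusted p = 0.0416) and Ecel1 to 0.22 (adjusted p = 0.0321). It left Gap43 at 0.075 (adjusted p = 0.211). Ecel1 was therefore called in both of these settings, and its range over the 16 alternatives was 0.13 to 0.22.

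**Figure D4:**
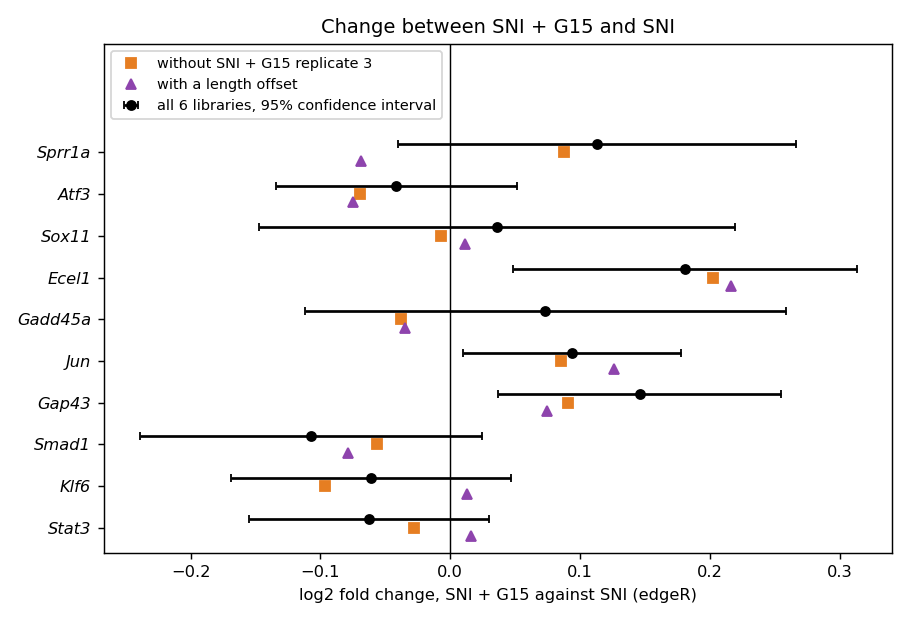
Log2 fold change between SNI + G15 and SNI (edgeR) with 95% confidence intervals from all 6 libraries (circles), without SNI + G15 replicate 3 (squares) and with a length offset (triangles). The values lie between -0.11 and 0.22, and those of Klf6, Stat3, Sprr1a, Gadd45a and Sox11 change sign between settings.

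The deposited table also splits the genes into transcripts. Atf3, Jun, Sox11, Sprr1a, Gap43 and Gadd45a had 1 transcript each. Klf6 had 2, with 99.9% to 100% of its FPKM in one of them. The main transcript of Smad1 (5 in all) held 84.7%, 87.6% and 88.6% of the gene's FPKM in sham, SNI and SNI + G15, and that of Stat3 (4 in all) 85.5%, 88.1% and 85.4%. The main model of Ecel1 (3 in all) held 83.7%, 80.8% and 83.5%. The main transcript of each gene thus held over 80% of it in every group. The estimated counts of Atf3 and Smad1 were not whole in 9 of 9 libraries and those of Ecel1 in 8, as happens when a read matches more than one sequence and is shared out, so these levels carry an added uncertainty.

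The pathways around the 10 genes did not all move with them. Over all tested genes, 23.3% were higher and 22.4% lower after SNI. Of the listed genes called after SNI, 8 had no library at 1 FPKM in the group where they were lower, which was SNI for Bmpr1b and sham for Il6, Clcf1, Dcx, Vip, Csrp3, Fgf2 and Kel. The filter therefore favoured the direction of these 8. The partners of c-Jun and ATF3 in the AP-1 and bZIP families were higher for 9 of 14 tested genes after SNI and lower for 1. Fos, which pairs with c-Jun, rose from 1.97 to 8.29 mean FPKM, a log2 fold change of 2.04 (SE 0.12, adjusted p = 2.41e-07, edgeR). Batf3 rose by 1.31 and Jdp2, an AP-1 repressor, fell by 0.26. The kinases and scaffolds of the DLK and JNK pathway, which phosphorylates c-Jun, had 1 of 11 higher and 6 lower. Mapk8, which encodes JNK1, was 0.26 higher, and Mapk8ip3, a scaffold of axonal transport, fell by 0.25. The median of this list was -0.16.

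The ligands, receptors and kinases upstream of STAT3 were higher for 14 of 17 tested genes after SNI and lower for 1, with a median log2 fold change of 0.60. The cytokine Il6 had a mean FPKM of 0.0167 in sham and 2.83 in SNI (adjusted p = 2.18e-06, edgeR), and passed the filter only through the injured groups. Socs3, a STAT3 target that inhibits JAK signalling, rose by 2.79 (SE 0.069, adjusted p = 4.19e-10), while the ciliary neurotrophic factor gene Cntf fell by 0.29. The BMP and SMAD genes around Smad1 went the other way in number, with 2 of 15 higher and 7 lower. The receptor Acvr1 and the common partner Smad4 were higher by 0.70 and 0.45, and the ligands Bmp4 and Bmp7 fell by 1.98 and 0.90.

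Among 12 other KLF factors, 4 were higher after SNI and 3 lower. Both counts are near the 23.3% and 22.4% of all tested genes. Klf10 and Klf7 were higher by 0.58 and 0.46, and Klf15 and Klf5 fell by 0.84 and 0.40. The SoxC relatives of Sox11 showed small values, 0.19 for Sox4 (adjusted p = 0.0231) and -0.35 for Sox12 (adjusted p = 0.0495). Neither call was stable, since leaving out SNI replicate 1 gave 0 calls of the 2. In the GADD45 and p53 list, 6 of 7 were higher and 1 was not called, with Gadd45g at 2.13 and the cell cycle inhibitor Cdkn1a at 1.98.

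Growth cone and axon growth genes, the class of Gap43, were higher for 19 of 24 after SNI, the other 5 not being called, with a median of 0.42. Flrt3, an adhesion protein, rose by 2.80 and Stmn4, a microtubule regulator, by 2.10. Other genes known to respond to axotomy were higher for 16 of 19 and lower for 1, with a median of 1.74. The neuropeptide gene Vip was listed at 0 in all sham libraries and had a mean of 22.5 FPKM in SNI, Csrp3 rose from 0.307 to 35.2 mean FPKM, and Ngfr, a neurotrophin receptor, fell by 0.22. Vip and Csrp3 were in the test only through the injured groups. The median of the 10 genes themselves was 2.12, as given above. Of 9 genes known to hold back axon growth, 3 were higher and 1 lower. In a list this small, these counts are near the 23.3% higher and 22.4% lower of all tested genes. Without sham replicate 2 they became 2 higher and 2 lower, and with DESeq2 or without SNI replicate 2 they were 2 and 1. Socs3 counts in this list as well, Rest rose by 0.35, and Rtn4r, the Nogo receptor gene, fell by 0.55.

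Among the peptidases related to Ecel1, 2 of 4 were higher after SNI and 2 lower. Kel, the blood group peptidase of red cells, rose from 0.147 to 0.653 mean FPKM, passing the filter only through SNI, and Ece1 by 0.12, while Ece2 and Mme fell by 0.32 and 0.30. Erythroid markers moved with Kel, with summed FPKM of 275–320 (sham), 930–995 (SNI) and 565–622 (SNI + G15) and all 7 detected in every group, and their part in the value of Kel was not tested. Both counts rest on few genes and changed with 1 call in either direction under several settings.

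Between SNI + G15 and SNI, 7 of the 14 tested AP-1 and bZIP partners were higher and the other 7 were not called, nor were Jun and Atf3. Cebpd rose from 49.2 to 73.5 mean FPKM (log2 fold change 0.59, SE 0.056, adjusted p = 0.000340, edgeR) and Junb, another AP-1 subunit, from 24.7 to 35.9 (0.55, SE 0.052, adjusted p = 0.000336). This count, from a background of 7.98% higher, fell to 4 without SNI replicate 1, to 3 without SNI replicate 2 and to 5 without SNI + G15 replicate 3. The difference between these genes and Jun was not tested. Fibroblast markers moved in the same comparison, with 6 of 6 higher, each detected in every group, and summed FPKM of 450–452 (SNI) and 606–630 (SNI + G15), and their part in the AP-1 values was not tested.

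In the IL-6 and JAK-STAT list, 5 of 17 were higher in SNI + G15 than in SNI and 4 lower. Over all tested genes 7.98% were higher and 7.25% lower. The cytokine genes Clcf1 and Lif, which signal through STAT3, were higher by 1.78 and 2.07, Lif from a mean of 0.300 FPKM and tested only because of the SNI + G15 group. Il6 fell by 0.83. The number lower was 2 when replicate 1 or 3 of SNI, or replicate 2 of SNI + G15, was left out, and 5 without SNI + G15 replicate 3. Stat3 itself differed by -0.063, as given above.

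In the DLK and JNK list, 4 of 11 had a lower level with G15 than with SNI alone, against 7.25% of all tested genes. The other 7 were not called. Map3k13 and Map2k4 fell by 0.41 and 0.29. The number lower was 2, 0 and 1 without SNI replicate 1, 2 and 3, it was 2 with limma, 2 with the replicate block and 1 with the length offset, and it stayed at 4 without SNI + G15 replicate 3. In the BMP list, Bmp7 and Id3 were higher and Smad9 and Bmpr2 lower, 2 each of 15. These counts are not far above the 7.98% higher and 7.25% lower of all tested genes. Bmp7 was higher by 1.72 and Smad9 fell by 0.65. With SNI replicate 2 or 3 left out, the counts were 1 higher and 0 lower, and without SNI + G15 replicate 3 they were 2 and 3.

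Of the 24 growth cone genes, 2 were higher in SNI + G15 than in SNI and 4 lower, the first near the 7.98% of all tested genes. Tubb6 and Stmn4 were higher by 0.33 and 0.32, and Ncam1 and Dpysl3 fell by 0.25 and 0.22. The number lower was 2, 2 and 1 without SNI replicate 1, 2 and 3, and the number higher was 1 without replicate 2 or 3. Without SNI + G15 replicate 3, 3 were higher and 5 lower. Of the 19 other axotomy-responsive genes, 5 were higher and 1, Arg1, was lower, with Csrp3 and Tnfrsf12a each higher by 0.41. That count of 5 became 3, 2 and 2 without SNI replicate 1, 2 and 3, and stayed at 5 with 2 lower without SNI + G15 replicate 3. In the remaining lists, 1 of 12 KLF factors (Klf7) was lower, 2 of 7 GADD45 and p53 genes (Cdkn1a and Gadd45b) were higher, 2 of 4 peptidases (Kel and Mme) were lower, and neither SoxC relative was called. Among the 9 growth brakes, Socs3 was higher. In lists this small, 1 call is near the background of 7.98% higher and 7.25% lower. The KLF call was lost without SNI replicate 1 or 3, without SNI + G15 replicate 2 and with the replicate block. The GADD45 count was 1 without SNI replicate 2 or 3, without SNI + G15 replicate 1 or 2, with DESeq2, with the replicate block and with the length offset. The peptidase count was 0 without SNI replicate 3 and 1 without SNI + G15 replicate 2 or with limma, and Kel was tested only because of SNI. Without SNI + G15 replicate 3, a KLF factor was called higher as well, and the counts of the GADD45, peptidase and SoxC lists and of the growth brakes were as before.

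**Figure D5:**
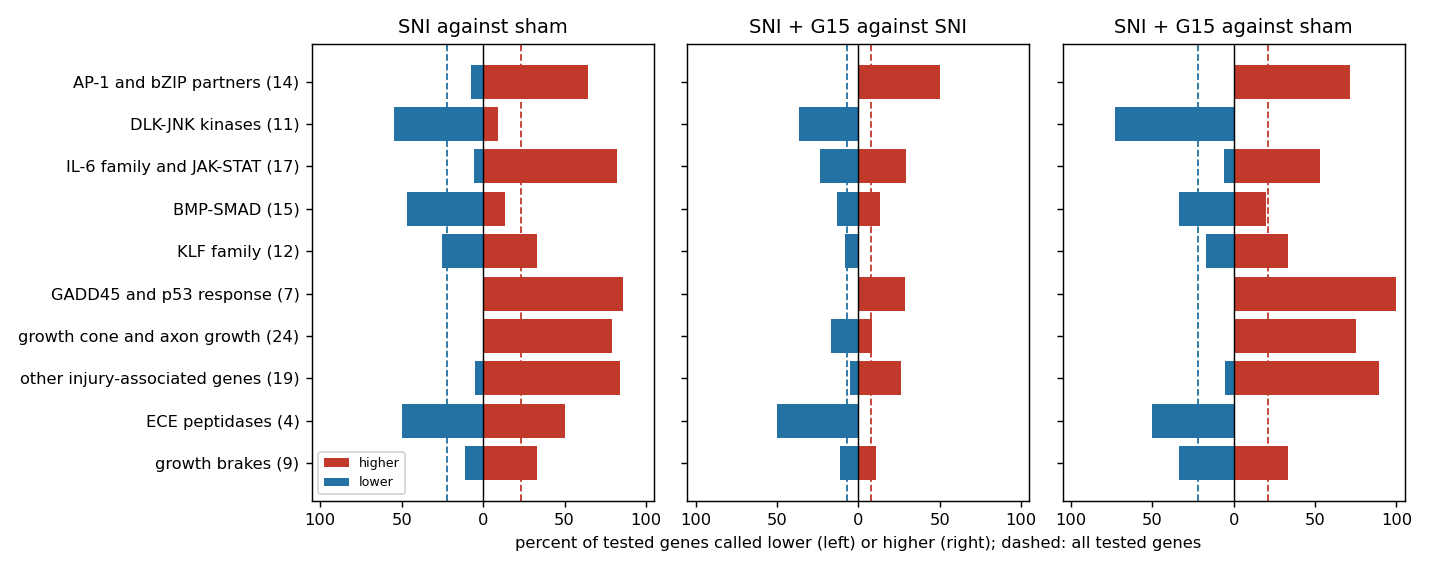
Percent of the tested genes of each list (number in brackets) that were higher (right) or lower (left) at an adjusted p below 0.05 (edgeR) in 3 comparisons of 3 libraries per group. Dashed lines mark the percent over all tested genes. In both comparisons with sham, the AP-1, IL-6, growth cone, GADD45 and other injury bars extend far right of them. The DLK and JNK bars extend far left. The SoxC list of 2 genes is left out.

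The list counts of SNI + G15 against sham also rest on the shared sham libraries. Over all tested genes, 21.4% were higher and 21.9% lower in this comparison. Higher were 10 of 14 AP-1 and bZIP partners, 9 of 17 IL-6 and JAK-STAT genes, 7 of 7 GADD45 and p53 genes, 18 of 24 growth cone genes, 17 of 19 other injury genes, 4 of 12 KLF factors, 3 of 15 BMP genes, 3 of 9 growth brakes and 1 of 2 SoxC relatives. Lower were 8 of 11 DLK and JNK genes, 5 of 15 BMP genes, 3 of 9 growth brakes, 2 of 4 peptidases, 2 of 12 KLF factors, and 1 each of the IL-6 and other injury lists. The BMP, KLF and growth brake counts were near the shares over all tested genes. All other tested genes of the lists were not called. Of the called genes, 10 had no library at 1 FPKM in the group where they were lower. The 3 growth brakes lower became 1 with DESeq2, with limma, and without sham replicate 1 or 3 or SNI + G15 replicate 2 or 3, and the 4 KLF factors higher became 2 without sham replicate 1 or 2 or SNI + G15 replicate 2.

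The 10 genes followed much the same pattern across the 9 libraries. The Pearson correlation of each gene's log2 normalised counts with the mean standardised profile of the other 9 was between 0.964 for Stat3 and 0.998 for Atf3 and Sprr1a. The points fall into sham and injured libraries, so these values describe that step. The genes outside the 10 most like their mean profile included Crisp3 (r = 0.9991), Sdc1, Tnik and Gal, and 782 of 14295 genes had r above 0.95. Gal, the neuropeptide galanin, went from 9.44 mean FPKM in sham to 260.7 in SNI and 225 in SNI + G15. Those most like Atf3 were Crisp3 (r = 0.9994), Sod2, Vip, Lcp1 and Tnik, with 771 genes above 0.95. Lcp1 encodes a leukocyte actin-bundling protein and had 45.6 mean FPKM in sham and 110 in SNI. Crisp3, a secreted protein, had 0.0833 mean FPKM in sham and 22.7 in SNI, close in shape to Sprr1a.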

How the data were processed

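DRG libraries of 3 groups with 3 samples each, sequenced as 150 bp pairs, were used. The authors deposited 2 kinds of value for genes and for transcripts: FPKM, scaled to depth and length, and unscaled estimated counts, some of them with decimals. Columns headed as control hold the group that no other heading names, and were read as sham. The labels name a mouse genome build although the gene identifiers are those of rat, so coordinates are given only for promoters, as RefSeq has them on GRCr8. The extraction protocol in the labels names another cell type and library kit than the methods.

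For each comparison, the rounded estimated counts of its 2 groups were fitted in R 4.3.3 with the quasi-likelihood method of edgeR 4.0.16 after TMM scaling, over 14305 genes that reached an FPKM of 1 in any library. Adjustment for multiple tests followed Benjamini and Hochberg over all genes tested. The methods give 3 rats per group and a supplementary sheet 6, and nothing in the labels ties a library to 1 animal, so libraries may hold pooled animals and p-values measure the spread between these samples. Intervals are 95% confidence intervals of the fit. Alternatives were DESeq2 1.42.0, limma 3.58.1 (trend, with 1 or 0.1 added to the FPKM before log2), a length offset, a replicate block, each library left out, a common fit of all 9 libraries, and other scalings and filters. Counts for single lists under these settings were added after seeing the data. The scripts were tested on simulated data.

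The 10 genes and the pathway lists were chosen with earlier results of these data known, so their direction is no independent support. From each list, up to 2 called genes per direction and comparison are named by size of change, as well as the 5 genes with the profile most like the members' mean and the 5 most like Atf3. Some genes that this rule selects are left out of the text. The fold changes and p-values computed by the authors were not used.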

Additional observations from a re-analysis of the deposited data

How the results depend on the processing

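Against sham, all 10 genes kept their direction and an adjusted p below 0.05 in both injured groups under each of 16 alternatives. Over these, the log2 fold change of Sprr1a in SNI ranged from 4.36 to 8.89, that of Sox11 from 2.49 to 3.57 and that of Atf3 from 4.85 to 5.19. Between SNI + G15 and SNI, the number of genes called over the whole table, 2179, became 1292 with a replicate block and 893 to 2333 with a library left out. The number among the pathway lists, 42, became 19 to 46 with a library left out, the lowest being without SNI replicate 3. Of the 10 genes 0 were called, and this became 2 with the length offset and 0 to 2 with a library left out. The length offset changed the sign of Klf6 (0.013), Stat3 (0.016), Sprr1a (-0.069) and Gadd45a (-0.035), none of them called. Leaving out a library gave -0.042 to 0.086 for Sox11 (below 0 without SNI replicate 2 or SNI + G15 replicate 3) and -0.038 to 0.13 for Gadd45a (below 0 without SNI + G15 replicate 3), and the cause was not tested.

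Libraries with the same number did not deviate together: 0 of 9 such pairs across groups had a correlation of deviations above 0.1 (-0.13 to 0.069). This gave no sign of pairing by number, but it cannot show how the samples were collected or processed. The replicate block changed no call of the 10 genes. Groups of 3 limit what can be seen of differences as small as those between SNI + G15 and SNI.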
